A study of Mus musculus with 4 samples.

Results

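Hematopoietic growth factor receptors are described here as 10 genes, Csf2ra, Il3ra, Csf2rb, Csf2rb2, Csf3r, Kit, Flt3, Il6ra, Il6st and Ifngr1, chosen by symbol out of 55339 rows of the deposited expression table. All 10 were present, and all 10 passed the filter on low values that left 17303 genes for testing. The samples are 2 libraries of Ybx1 knockout leukemia cells (replicates 1 and 3, genotype YBX1-/-, cKO in the titles) and 2 libraries of WT leukemia cells (replicates 4 and 5). All 4 were made from polyadenylated RNA of cells taken from the bone marrow of C57BL/6 mice. YBX1 is an RNA-binding cold-shock domain protein, and the series title asks whether it keeps myeloid leukemia cells alive by stabilising m6A-marked mRNA. The labels name no leukemia-driving oncogene, Cre driver or age, and do not say whether replicates are separate mice, so p-values measure only the spread between these libraries, which may be technical. The title of knockout replicate 3 begins with RNA-seq number 2, those of the other libraries with number 1.

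Myeloid cells depend on these receptors for survival, proliferation and maturation. GM-CSF and IL-3 receptors each pair a ligand-specific alpha chain with a beta chain that carries the signal through JAK2 and STAT5. The mouse has a pair of beta chains, the common chain encoded by Csf2rb and an IL-3-specific chain encoded by Csf2rb2. G-CSF receptor works as a homodimer, IL-6 binds its own receptor and then the shared chain gp130, and the interferon-gamma receptor pairs 2 chains. KIT and FLT3 are receptor tyrosine kinases of stem and progenitor cells.

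Csf2rb and Csf2rb2 are near-identical neighbours on mouse chromosome 15, and their sequences are shown because reads of one can resemble the other. In GRCm38, Csf2rb (ENSMUSG00000071713.6) spans 78325752 to 78353847 on the plus strand and Csf2rb2 (ENSMUSG00000071714.7) 78282507 to 78305721 on the minus strand, with 20030 bases between them. Over 2628 aligned coding bases of the GENCODE M21 transcripts, 2503 were identical (95.2%). The first 150 coding bases of each follow, from the GENCODE transcripts, with the 6 differing bases in capitals.
Csf2rb: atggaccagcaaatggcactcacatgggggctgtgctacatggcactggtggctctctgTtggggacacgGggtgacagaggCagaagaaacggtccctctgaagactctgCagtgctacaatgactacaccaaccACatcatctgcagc
Csf2rb2: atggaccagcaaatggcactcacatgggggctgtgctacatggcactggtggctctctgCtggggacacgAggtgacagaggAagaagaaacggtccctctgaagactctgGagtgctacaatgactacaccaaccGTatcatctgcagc
Of the 100-base stretches of the Csf2rb transcript, 6.96% also occur exactly in the Csf2rb2 transcript, and 7.2% of the Csf2rb2 stretches occur in Csf2rb. How the authors' counting treated reads that match both genes is not given in the sources used here, so the split between these 2 genes is uncertain. In the same build Csf2ra spans 61223957 to 61228429 of chromosome 19 (minus strand), Csf3r 126024550 to 126044440 of chromosome 4 (plus), Ifngr1 19591949 to 19610229 of chromosome 10 (plus) and Il3ra 14346275 to 14356011 of chromosome 14 (plus). Kit spans 75574916 to 75656722 (plus) and Flt3 147330741 to 147400489 (minus) of chromosome 5, Il6ra 89864059 to 89913196 of chromosome 3 (minus) and Il6st 112464070 to 112510086 of chromosome 13 (plus).

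Promoters are shown for the members with a RefSeq entry that lay lower in both knockout libraries on the log2 scale and by rank within the library, namely Csf2ra, Csf3r and Ifngr1. RefSeq promoter sequences (GRCm38.p6) matched 9 of the 10 members, all but Csf2rb, and the 250 bases before each RefSeq start were searched on both strands. For Csf2ra, Csf3r, Il3ra and Kit the RefSeq start lies inside the GENCODE span of the gene, so these windows run into that span. Capitals mark GAGGAAG, the core bound by the myeloid factor PU.1, CCAAT, the CCAAT box, and TTCNNNGAA, a STAT site.
Csf2ra, chr19:61228419-61228668, minus strand: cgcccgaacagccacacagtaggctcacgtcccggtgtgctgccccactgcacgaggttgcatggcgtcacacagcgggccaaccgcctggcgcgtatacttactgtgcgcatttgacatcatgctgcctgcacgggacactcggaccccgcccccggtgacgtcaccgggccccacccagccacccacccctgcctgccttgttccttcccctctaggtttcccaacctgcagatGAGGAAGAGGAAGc
Csf3r, chr4:126024409-126024658, plus strand: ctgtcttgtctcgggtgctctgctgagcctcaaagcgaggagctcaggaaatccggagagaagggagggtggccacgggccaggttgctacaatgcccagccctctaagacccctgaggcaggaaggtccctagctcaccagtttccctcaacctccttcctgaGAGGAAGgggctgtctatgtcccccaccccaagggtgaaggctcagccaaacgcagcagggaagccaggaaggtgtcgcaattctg
Ifngr1, chr10:19591699-19591948, plus strand: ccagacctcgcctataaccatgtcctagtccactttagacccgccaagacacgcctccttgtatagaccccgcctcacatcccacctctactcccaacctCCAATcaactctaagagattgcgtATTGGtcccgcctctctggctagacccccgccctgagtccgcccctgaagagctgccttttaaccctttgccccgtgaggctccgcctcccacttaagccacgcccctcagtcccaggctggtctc
GAGGAAG occurred in 4 of the 9 promoters (Csf2ra, Csf2rb2, Csf3r and Kit), and in 10.4% of 27025 promoters of the same length. The 2 copies in Csf2ra overlap by 1 base. The copy in Csf3r and the last copy in Csf2ra lie inside the GENCODE span of the gene, not before it. CCAAT occurred in 2 of the 9 (Ifngr1 and Il6st, against 34.5% of all promoters) and TTCNNNGAA in 1 (Csf2rb2, against 7.18%). These are matches of letters, not binding sites. The gene for PU.1, Spi1, was at 13.13 and 13.31 log2 in the knockout libraries, against 20.81 and 13.16 log2 in WT.

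Because the series concerns m6A, which is placed in a sequence context whose frequent form is GGACT in DNA letters, that motif was counted on the transcript strand of 1 coding sequence per gene. The site nearest the end of the coding sequence is shown for 4 of the members that had one, with the motif in capitals. It lies 389 bases from that end in Csf2ra, 47 in Csf2rb, 440 in Csf3r and 1077 in Il6ra.
Csf2ra: cttgacggcccgGGACTtccagtttgagg
Csf2rb: cctaaagcatcaGGACTacctgtccctgc
Csf3r: acccagcttctgGGACTccagcgtgccat
Il6ra: atcacctggtggGGACTgtgcccttgctg
Csf2rb had 6 sites (2.23 per kb), Csf2rb2 had 5 (1.9 per kb) and Il6ra had 3 (2.17 per kb), at the 85.7th, 78.7th and 84.8th percentile of 21088 coding sequences. Csf2ra had 1.72 sites per kb, Ifngr1 1.4 and Csf3r 1.19, against a median of 1.05 per kb over all genes. Flt3 had 0.667 and Kit 0.34 per kb, and Il3ra and Il6st had 0 sites in the coding sequence. The untranslated parts of the transcripts were not searched, and for Il6st the coding sequence is 2751 of 8678 bases. The motif alone does not show that a base is methylated, and methylation was not measured in these libraries.

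The deposited values are log2 expression per gene, normalized by the authors by a method not given in the sources used here, and depth is unknown because the table holds no counts. Ybx1 itself was at 7.29 and 8.33 in knockout cells, against 19.7 in WT replicate 4, and its mean difference from WT replicate 5 was -2.19. WT replicate 4 stood apart from the rest. Of 1242 abundant genes (median of 10 or more elsewhere), it held 502 (40.4%) more than 3 log2 above the median of the remaining libraries and 588 (47.3%) more than 1 log2 below. In that library 33.2% of tested genes had a value of 4.5 to 6, against 10.4% to 10.9% in each other library. The limma difference of each receptor is therefore given with and without WT replicate 4. Of the 12 myeloid markers all were tested, among them Mpo at 13.71 and 12.3 log2 in knockout, against 21.09 and 13.13 log2 in WT, and Ptprc (CD45) at 11.57 and 11.1 log2 in knockout, against 10.39 and 11.8 log2 in WT.

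Csf2ra, Csf2rb, Csf3r, Ifngr1 and Kit lay lower in each knockout library than in either WT library, and Il3ra and Il6st lay higher, but limma called none of the 10 receptors. That is 5 of 10 members lower, where 18.8% of all tested genes lay lower, and 2 of 10 higher, where 17.3% did. For Csf2ra, Csf2rb, Csf3r and Ifngr1, WT replicate 4 lay more than 3 log2 above the other libraries, as for 40.4% of abundant genes. Against WT replicate 5 alone the knockout pair lay below in 6 of 10 members and above in 2. Of all tested genes, 33.4% lay below WT replicate 5 and 41.8% above. Csf2rb2, Flt3 and Il6ra overlapped between the groups. Limma's adjusted p-values for the members were 0.826 to 0.938. Ybx1, the knockout gene itself, was not called by limma either (difference -7.04, SE 3.49, adjusted p = 0.826). The authors' deposited table called Ybx1 lower, at a log2 fold change of -9.5 (adjusted p = 0.000306). The lack of a limma call therefore does not show that a receptor is unchanged. Across all genes limma called 0 of 17303 (0%) at an adjusted p under 0.05, with 651 at an unadjusted p under 0.05, none of them a member. Without WT replicate 5 limma called 28.7% of all genes and 6 of the 10 members, all set against WT replicate 4 alone. The median log2 difference of the members, knockout minus WT, was -1.32, against -0.09 over all tested genes. Without WT replicate 4 these medians were -0.30 and 0.07, and limma again called 0 genes, with 1799 at an unadjusted p under 0.05 and no member among them.

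**Figure D1:**
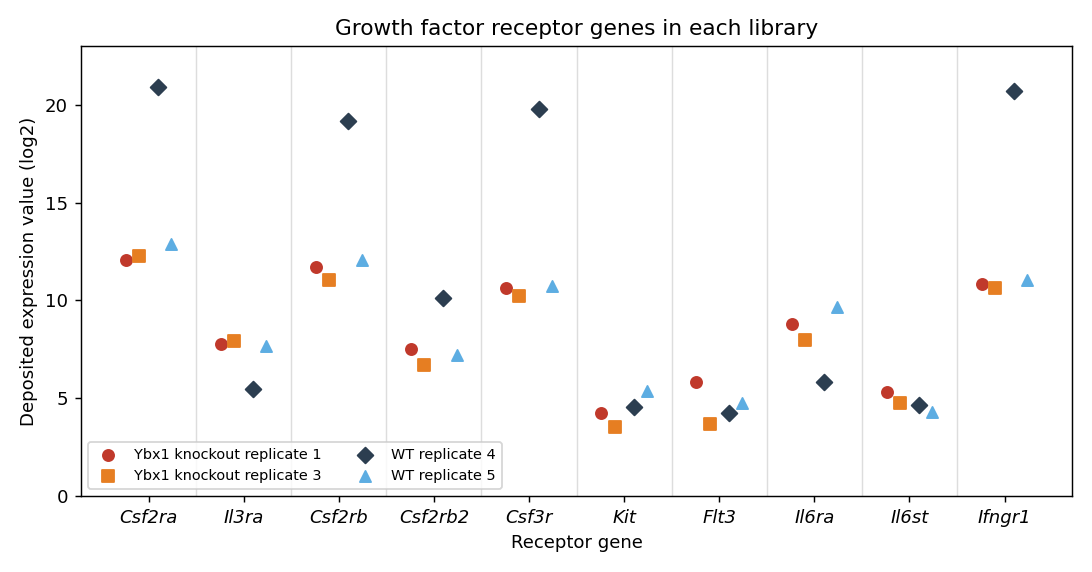
Deposited log2 expression value of each receptor gene (vertical axis) in each library, with 1 point per library. WT replicate 4 lies between 19.16 and 20.89 for Csf2ra, Csf2rb, Csf3r and Ifngr1, where the other 3 libraries lie between 10.24 and 12.87.

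In the GM-CSF receptor, the alpha chain gene Csf2ra, which confers ligand specificity, was at 12.09 and 12.26 log2 in the knockout libraries, against 20.89 and 12.87 log2 in WT replicates 4 and 5. The knockout pair lay within 0.17 of each other and below both WT values, which were 8.02 apart. Levels averaged 12.17 ± 0.12 in knockout and 16.88 ± 5.67 in WT cells (SD, n = 2 each), and limma gave a difference of -4.71 (SE 6.05, adjusted p = 0.85), short of the threshold. Against WT replicate 5 alone, Csf2ra was 1.62-fold lower (log2 difference -0.70, 95% interval -1.45 to 0.06, limma adjusted p = 0.489), the smallest adjusted p among the members in that fit. The authors' deposited table called Csf2ra lower, at a log2 fold change of -7.33 (adjusted p = 0.00294).

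The common beta chain gene Csf2rb, which signals for GM-CSF, IL-3 and IL-5, was at 11.72 and 11.02 log2 in knockout, against 19.16 and 12.08 log2 in WT. The groups did not overlap, with a gap of 0.36 between the nearest libraries. With all libraries limma gave a difference of -4.25 (SE 4.06). Without WT replicate 4 the log2 difference was -0.71 (95% interval -2.27 to 0.85), close to that of its partner Csf2ra, and its limma adjusted p was 0.63. In the authors' deposited table Csf2rb was called lower, at a log2 fold change of -6.44 (adjusted p = 0.0302). These 2 of 10 members were the receptors called lower there, against 3.96% of 17185 genes with a deposited fold change, and 0 were called higher, against 0.157%.

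Csf2rb2, the IL-3-specific beta chain, was at 7.5 and 6.71 log2 in knockout, against 10.14 and 7.22 log2 in WT. The groups overlapped, since knockout replicate 1 lay above WT replicate 5. Its limma difference was -1.58 (SE 1.18) with all libraries and -0.12 (95% interval -1.99 to 1.75) from WT replicate 5. Il3ra, the alpha chain that binds IL-3, was at 7.78 and 7.91 log2 in knockout, against 5.47 and 7.69 log2 in WT. It was higher in both knockout libraries, but by only 0.08 between the nearest values, and its limma difference was 1.27 (SE 0.96) with all libraries and 0.15 (95% interval -0.73 to 1.04) from WT replicate 5. The value of Il3ra in WT replicate 4 falls in the band of 4.5 to 6 that holds 50.2% of the genes with a median of 7 to 10 in the other libraries.

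Csf3r, the G-CSF receptor of neutrophils and their precursors, was at 10.63 and 10.24 log2 in knockout, against 19.77 and 10.76 log2 in WT. Both knockout values were lower, and knockout replicate 1 by 0.13 from WT replicate 5. The limma difference was -4.83 (SE 3.87) with all libraries, and that from WT replicate 5 was -0.32 log2, a 1.25-fold lower level (95% interval of the log2 difference -1.33 to 0.69). Ifngr1, the ligand-binding chain of the interferon-gamma receptor, followed the same layout, at 10.83 and 10.64 log2 in knockout, against 20.69 and 11.02 log2 in WT. Its WT libraries differed by 9.66, the widest gap among the members, and its limma difference was -5.12 (SE 4.39) with all libraries and -0.28 (95% interval -1.03 to 0.46) from WT replicate 5. The authors' deposited table gives log2 fold changes for Csf3r and Ifngr1 of -7.76 and -8.83, beyond that of Csf2ra, yet both genes are listed there with a p-value of 1. The same holds for 973 of 1909 tested genes (51%) with a deposited log2 fold change under -6.

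Kit, the stem cell factor receptor, was at 4.23 and 3.56 log2 in knockout, against 4.55 and 5.35 log2 in WT. Both knockout libraries lay below both WT libraries, and WT replicate 4 was the nearer of the WT pair. Its value falls in the band of 4.5 to 6 that holds 33.2% of the tested genes of that library. The mean was 3.90 ± 0.47 in knockout and 4.95 ± 0.56 in WT cells (SD, n = 2 each), with a limma difference of -1.05 (SE 0.79, adjusted p = 0.826). Without WT replicate 4 Kit was 2.73-fold lower (log2 difference -1.45, 95% interval -3.87 to 0.98), with the mean farthest below WT replicate 5 of the 10 members. KIT is also carried by mast cells, whose markers were mostly low: Fcer1a and Cma1 were listed at 0, and the summed level of the 6 mast cell and basophil markers was 6.39 and 5.5 log2 in knockout, against 5.63 and 6.23 log2 in WT. That sum is mostly Mcpt8. Cpa3, a mast cell protease gene named after its values were seen, was at 4.71 and -1.69 log2 in knockout, against 3.37 and 5.03 log2 in WT. Like Kit, Cpa3 was lowest in knockout replicate 3 and highest in WT replicate 5. Ms4a2, another gene of this list, was lowest in WT replicate 5 instead. Ms4a2 was at 2.48 and 2.49 log2 in knockout, against 2.96 and 0.58 log2 in WT. The part of mast cells in the Kit values was not tested. In bulk RNA, fewer cells of a type and less RNA per cell cannot be told apart.

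Flt3, the FLT3 ligand receptor of lymphoid and myeloid progenitors, was at 5.86 and 3.69 log2 in knockout, against 4.23 and 4.77 log2 in WT. The knockout libraries lay on either side of the WT pair and were 2.17 apart, the widest knockout spread of the members. Its limma difference of 0.28 was within that spread, and its difference from WT replicate 5 was 0.01 (95% interval -4.74 to 4.76).

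The 2 chains of the IL-6 receptor lay in opposite directions against WT replicate 5. Il6ra, the ligand-binding chain, was at 8.79 and 7.96 log2 in knockout, against 5.84 and 9.69 log2 in WT. The knockout libraries lay between the WT libraries, and the value in WT replicate 4 again falls in the band of 4.5 to 6. The direction rests on WT replicate 4: the limma difference was 0.61 (SE 1.45) with all libraries and -1.31 (95% interval -3.13 to 0.50, adjusted p = 0.524) without it, a 2.49-fold lower level. A difference that low or lower from WT replicate 5 was found in 9.4% of all tested genes. Its fold change in the authors' deposited table was -0.57 log2, the 1 member whose sign was opposite to the difference of the sample columns. Against WT replicate 5 the monocyte and neutrophil surface gene Itgam (CD11b) lay lower too, at 8.03 and 7.22 log2 in knockout, against 18.2 and 9.31 log2 in WT. Its difference of -1.68 from WT replicate 5 was the lowest of the 12 myeloid markers. In WT replicate 4 the genes parted, with Itgam at its highest value and Il6ra at its lowest. Of the 12 myeloid markers, in 5 the knockout pair lay below WT replicate 5 and in 2 above it, where 33.4% and 41.8% of all tested genes did. The list summed to 17.08 and 17.15 log2 in knockout, against 24.44 and 16.86 log2 in WT. The largest part of that sum was Elane, at 16.48 and 16.55 log2 in knockout, against 23.52 and 15.84 log2 in WT. The part of cell make-up in the Il6ra values was not tested.

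Il6st, which encodes the signalling chain gp130, was at 5.33 and 4.78 log2 in knockout, against 4.66 and 4.31 log2 in WT. The value in WT replicate 4 falls in the band of 4.5 to 6 here too. The groups did not overlap, but the gap of 0.12 at the nearest was smaller than the spread within either pair, 0.55 in knockout and 0.34 in WT. The mean was 5.06 ± 0.39 in knockout and 4.48 ± 0.24 in WT cells (SD, n = 2 each), and limma gave a difference of 0.57 (SE 0.73, adjusted p = 0.848), short of the threshold. Against WT replicate 5 alone it was 1.68-fold higher (log2 difference 0.74, 95% interval -1.41 to 2.90).

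**Figure D2:**
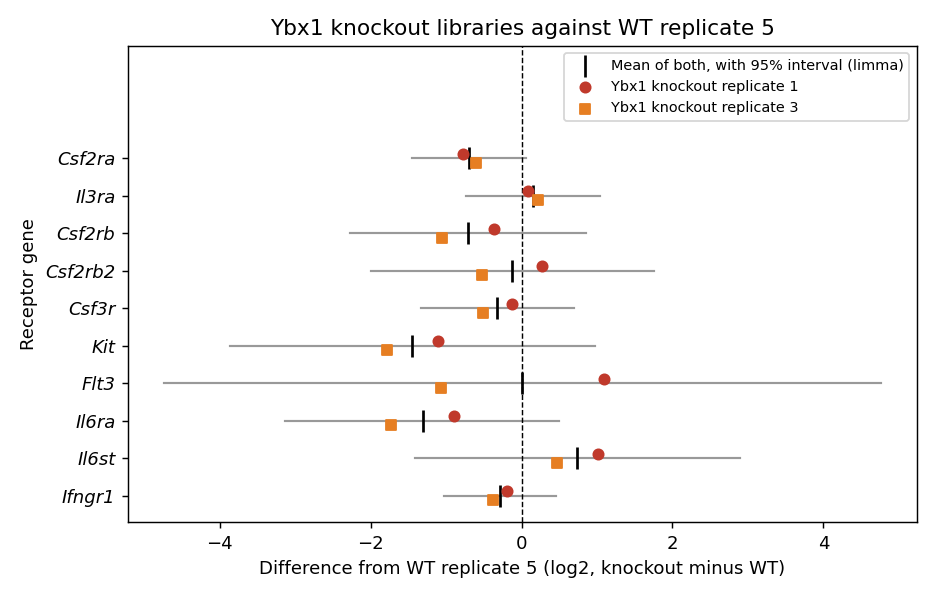
Log2 difference of each knockout library from WT replicate 5 for each receptor gene, with the mean and limma's 95% interval in 3 libraries. Kit and Il6ra lie farthest below 0 (means -1.45 and -1.31), Il6st farthest above it (0.74), and every interval includes 0.

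Ranks within a library do not depend on its scale, so each receptor was also placed among the 17303 tested genes of its own library. Csf2ra stood at the 99.0th percentile in both knockout libraries, against the 99.5th and 99.4th in WT replicates 4 and 5. Csf3r was at the 95.8th and 94.1st, against the 97.7th and 96.3rd, and Ifngr1 at the 96.6th and 95.9th, against the 99.3rd and 97.1st. These 3 of 10 members ranked lower in both knockout libraries, as did 12.5% of all tested genes. Csf2rb was not among them: it ranked at the 98.6th and 97.1st percentile in knockout, against the 96.7th in WT replicate 4 and the 98.8th in WT replicate 5. Kit also overlapped by rank, at the 42.4th and 39.2nd percentile, against the 41.2nd and 49.6th. Il6st ranked higher in both knockout libraries, at the 49.6th and 46.9th percentile, against the 43.0th and 42.8th, as did 23.5% of all genes. Il6ra ranked at the 82.6th and 75.4th percentile in knockout, between the 72.3rd of WT replicate 4 and the 90.6th of WT replicate 5. Quantile normalization, which gives every library the same distribution of values, brought the difference over all 4 libraries to -0.04 for Csf2rb, -0.53 for Csf2ra, -0.96 for Csf3r and -1.05 for Ifngr1, with no call by limma.

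**Figure D3:**
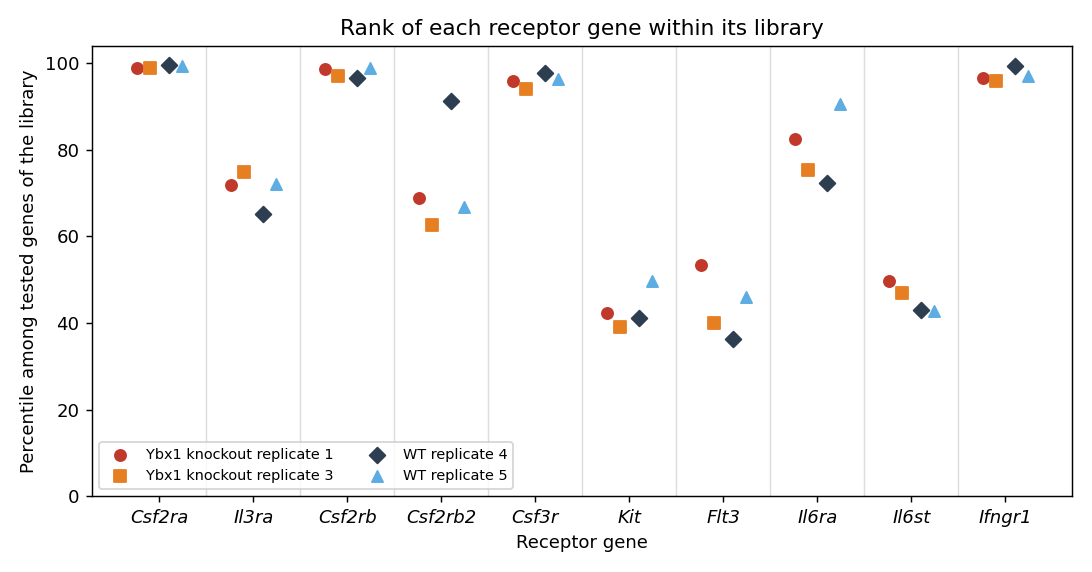
Percentile of each receptor gene among the 17303 tested genes of the same library, with 1 point per library. Csf2ra stays between 99.0 and 99.5 in all 4 libraries, while Csf2rb2 ranks at 91.3 in WT replicate 4 and between 62.6 and 68.9 in the others.

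Levels per length assume that the deposited values were not already divided by length, which the sources used here do not state. Per length, with all annotated exons of a gene merged, Csf2ra had the highest level of the 10 receptors in every library, at 10.57 and 10.73 log2 per kb in knockout, against 19.37 and 11.35 log2 per kb in WT. Ifngr1 was next in every library, and Csf3r and Csf2rb held the following places, close together at means of 8.59 and 8.5 log2 per kb in knockout. Il3ra (6.28), Il6ra (5.26) and Csf2rb2 (4.86) followed in the knockout mean, and Flt3 (2.14), Il6st (1.58) and Kit (0.74) were lowest. The knockout values of Csf3r and Csf2rb overlapped, as did those of Il6ra and Csf2rb2, and those of Flt3 and Il6st. In WT replicate 5 Il6ra, at 6.57 log2 per kb, lay above Il3ra, at 6.12, and in both knockout libraries it lay below, at 5.67 and 4.85 against 6.21 and 6.34 for Il3ra. That order rests on the division by length, since in the values as deposited Il6ra lay above Il3ra in all 4 libraries.

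Differences between paired chains were taken within each library, where a shift of the whole library cancels. A departure that differs between genes does not cancel, and WT replicate 4 lay above the other libraries for some abundant genes and below for others. Only their change between libraries is read, since lengths differ. Csf2ra minus Csf2rb was 0.37 and 1.24 log2 in knockout, against 1.73 and 0.79 log2 in WT, and the groups overlapped. Il6ra minus Il6st was 3.45 and 3.18 log2 in knockout, against 1.18 and 5.37 log2 in WT, so that the knockout pair lay between the WT libraries and 2.06 below WT replicate 5 in the mean. The difference Csf2rb minus Csf2rb2 was 4.22 and 4.31 log2 in knockout, below both WT values of 9.02 and 4.85, with the doubt on the split of reads between these genes given above. Ifngr1 minus Ifngr2, the second chain of the interferon-gamma receptor, was -0.15 and -0.75 log2 in knockout, against 10.01 and -0.12 log2 in WT. Ifngr2 itself was at 10.98 and 11.39, against 10.67 and 11.14, so the 2 chains of this receptor parted in WT replicate 4 alone. Il3ra minus Csf2rb2 was 0.28 and 1.21 log2 in knockout, against -4.68 and 0.47 log2 in WT.

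**Figure D4:**
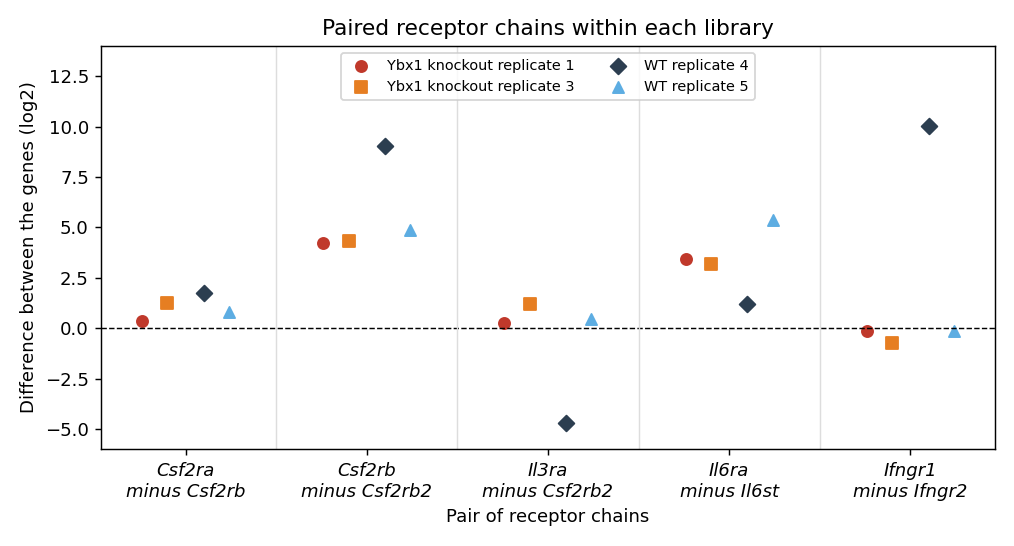
Difference between the genes of 2 receptor chains within each library (log2), with 1 point per library. WT replicate 4 lies apart for Csf2rb minus Csf2rb2 (9.02), Il3ra minus Csf2rb2 (-4.68) and Ifngr1 minus Ifngr2 (10.01), and the 2 knockout libraries lie within 0.93 of each other for every pair.

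Ligands of these receptors were mostly near or at the bottom of the scale. Il3 and Ifng were listed at 0 in all 4 libraries, and Csf2 and Kitl lay below 0 on the log2 scale in each. The 3 ligand genes tested, Csf3, Flt3l and Il6, had both knockout values below WT replicate 5, as did 33.4% of all tested genes. Only 1 of them, Csf3, lay below both WT libraries, as did 18.8% of all tested genes. Knockout values of Csf3 (G-CSF) were 7.34 and 6.97, where WT replicates 4 and 5 had 7.36 and 7.65. Those of Flt3l were 4.83 and 4.22, where WT replicates 4 and 5 had 4.77 and 5.23. Limma called none of the 3, and none had an unadjusted p under 0.05.

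Among the kinases and transcription factors downstream of the receptors, 11 JAK and STAT genes, 2 lay below both WT libraries and 1 above, where 18.8% and 17.3% of all tested genes did, and limma called 0. Their median difference was 0.54 over all libraries, but -0.20 when WT replicate 4 was left out. Jak1, which serves gp130 and the interferon receptors, was at 10.3 and 10.25 log2 in knockout, against 21.66 and 10.51 log2 in WT. Stat3, the main STAT of the G-CSF and IL-6 receptors, was at 10.31 and 10.53, against 20.54 and 10.89, a difference of -0.47 from WT replicate 5. In the authors' deposited table Stat3 was the 1 gene of this list called lower, at a log2 fold change of -9.13 (adjusted p = 0.000231). Stat5a and Stat5b, which act below the GM-CSF and IL-3 receptors, overlapped between the groups. Stat5a was at 7.89 and 6.64 log2 in knockout, against 5.44 and 7.46 log2 in WT, and Stat5b at 6.94 and 5.88, against 5.2 and 6.31.

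Of 12 genes listed as JAK-STAT targets, 5 lay below both WT libraries and 0 above, where 18.8% and 17.3% of all tested genes did. Against WT replicate 5 alone, 9 lay below in both knockout libraries and 0 above, where 33.4% of all genes lay below and 41.8% above. The other pathway lists also held more genes below WT replicate 5 than above. These counts were 6 and 1 of 11 JAK and STAT genes, and 12 and 6 of 26 adaptors and pathway genes. They were 10 and 4 of 20 other receptors, and 6 and 4 of 20 feedback inhibitors. The share of feedback inhibitors below WT replicate 5 was under the 33.4% of all tested genes, and the shares of the other lists were above it. Limma called no gene of any of these lists, which were chosen with earlier results of these data known. The median difference of the 12 targets from WT replicate 5 was -0.40 log2, against 0.07 over all genes. With all 4 libraries limma called none of them. Bcl6, a repressor, was at 3.7 and 2.87 log2 in knockout, against 4.74 and 5.57 log2 in WT. Pim2, a survival kinase gene, was at 7.95 and 8.34, against 5.66 and 8.36. In the authors' deposited table, 3 of the 12, Pim1, Bcl2l1 and Myc, were called lower, where 3.96% of all genes were. Pim1 had a log2 fold change of -7.06 there (adjusted p = 0.00394), Bcl2l1 one of -6.36 (adjusted p = 0.012) and Myc one of -4.82 (adjusted p = 0.0118). Pim1, a survival kinase gene, was at 11.38 and 11.31 log2 in knockout, against 19.42 and 11.7 log2 in WT, and its difference from WT replicate 5 was -0.36. Bcl2l1, which encodes the survival protein BCL-XL, was at 11.6 and 11.37, against 19.13 and 11.71, a difference of -0.22 from WT replicate 5. For both genes WT replicate 4 alone stood far above the knockout pair. Myc, a growth-promoting transcription factor, was at 9.71 and 10.24 log2 in knockout, against 10.91 and 11.05 log2 in WT, so the sample columns differ by -1.01, not by the deposited -4.82. The deposited adjusted p of Myc departs from its neighbours, since Tubgcp2 and Mtmr2, next to it by p-value in the authors' deposited table, are listed at 0.0945 and 0.0947.

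Feedback inhibitors lay on both sides: 3 of 20 lay below both WT libraries and 4 above, where 18.8% and 17.3% of all tested genes did. Limma called 0, and the median difference was 0.31 over all libraries and -0.04 from WT replicate 5. Spred2, an inhibitor of RAS-MAPK signalling, was at 5.96 and 5.58 log2 in knockout, against 4.82 and 4.44 log2 in WT, and Pias1, a STAT inhibitor, at 9.4 and 8.75, against 19.2 and 9.44. Of 26 adaptors and genes of the RAS and PI3K pathways, 4 lay below both WT libraries and 3 above (18.8% and 17.3% of all tested genes), with no call by limma and a median difference of 0.21 over all libraries and -0.25 from WT replicate 5. Braf, a RAF kinase below RAS, was at 8.63 and 8.4 log2 in knockout, against 5.62 and 7.64 log2 in WT. Nras was the 1 gene of this list called in the authors' deposited table, at a log2 fold change of -7.05 (adjusted p = 0.0037). It was at 12.71 and 12.46 log2 in knockout, against 20.9 and 13.1 log2 in WT, and its difference from WT replicate 5 was -0.51 (limma adjusted p = 0.568).

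Among 22 other receptors of blood cell cytokines, of which 20 were tested, 3 lay below both WT libraries and 4 above (18.8% and 17.3% of all tested genes), limma called none, and the median difference was 0.36 over all libraries and -0.14 from WT replicate 5. Il1r2, the decoy receptor for IL-1, was at 9.45 and 10.41 log2 in knockout, against 8.34 and 6.03 log2 in WT, a difference of 3.89 from WT replicate 5. Il7r, a lymphoid receptor, was at 1.94 and 3.65 log2 in knockout, against 4.51 and 5.65 log2 in WT. Both genes had the smallest limma p of this list, 0.0549 and 0.0729 before adjustment, and an adjusted p of 0.826. Csf1r, the M-CSF receptor of monocytes, was at 9.57 and 8.8, against 7.6 and 9.8, and overlapped as Il6ra did.

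Markers of lymphoid, erythroid, platelet and stromal cells were mostly low. Cd3e, Cd3g, Gp1bb and Lepr were among the markers listed at 0 in all 4 libraries. The summed level of the 8 T cell markers was 4.64 and 6.02 log2 in knockout, against 6.26 and 5.64 log2 in WT, and that of the 8 erythroid markers 2.57 and 4.74, against 6.92 and 4.19. The 8 B cell markers summed to 7.44 and 7.27 log2 in knockout, against 5.83 and 7.04 log2 in WT, the 6 megakaryocyte markers to 4.61 and 5.2, against 5.44 and 6.69, and the 8 stromal and endothelial markers to 6.66 and 6.34, against 7.33 and 6.22. The marker with the highest mean log2 value over the 4 libraries in each list was Lck (3.72 and 5.2 log2 in knockout, against 4.57 and 4.17 in WT), Cd79b (7.41 and 7.18, against 5.16 and 7.0), Hbb-bs (0.7 and 2.67, against 3.36 and 1.95), Gp6 (3.59 and 5.0, against 5.02 and 5.86), Mcpt8 (5.69 and 5.29, against 4.74 and 5.34) and Pecam1 (6.59 and 6.11, against 6.93 and 6.1). Hbb-bs was the highest erythroid marker in knockout replicate 1 only. Hba-a1 was higher in knockout replicate 3 (3.35), Hba-a2 in WT replicate 4 (6.19) and Alas2, a heme synthesis gene, in WT replicate 5. Alas2 was at -0.39 and -0.03 log2 in knockout, against 2.96 and 3.33 log2 in WT.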

How the data were processed

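RNA of leukemia cells from 2 Ybx1 knockout and 2 WT libraries was measured by sequencing of polyadenylated RNA. The authors deposited 1 table of 55339 genes with a log2 expression value per library, normalized by a method that is not given in the sources used here, and with the log2 fold change, p-value and adjusted p-value of their own comparison. Per the submitters' processing notes the build was GRCm38 and the tools included HISAT2 2.1.0, featureCounts, DESeq2 and CASAVA, without roles. The deposited fold change is headed WT against knockout but follows knockout minus WT in sign for 9 of the 10 members, and is read so. No column held values of other samples.

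Genes with a log2 value of at least 0 in at least 2 libraries that varied between libraries were fitted with limma 3.58.1 (mean-variance trend, R 4.3.3) on the values as deposited, with Benjamini-Hochberg adjustment over all 17303 genes and a threshold of 0.05. The edgeR test planned for counts was not used, since the table holds none. With a single WT library left, that library is assumed to vary like the knockout pair. Exact permutation of 2 against 2 libraries cannot give a two-sided p below 0.333, so none is reported for single genes. Precision is limited by the number of libraries, as depth is unknown. Members and lists were chosen with earlier results of these data known. The genes named are the members, Ybx1, the 2 genes with the smallest limma p of each pathway list where none was called, and the marker of each other cell type with the highest mean log2 value; other names were chosen after their values were seen. A few genes of these lists are not reported here by name. The fit was tested on data simulated with a small, even spread between libraries, which does not show its power with WT replicate 4 included. Coordinates and transcripts are from GENCODE M21 (GRCm38), promoters from RefSeq (GRCm38.p6).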

Additional observations from a re-analysis of the deposited data

How the results depend on the processing

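Limma called 0 genes under every alternative except those that left out a library other than WT replicate 4 (0 to 4960 genes over the 4 removals, with 4960 without WT replicate 5, 26 without knockout replicate 1 and 88 without knockout replicate 3) and, chosen after seeing the data, a filter of log2 5 without WT replicate 4, which called 100 of 9058 genes and 0 of the 7 members it kept. Leaving out 1 library at a time, the log2 difference ranged from -8.72 to -0.70 for Csf2ra, -7.79 to -0.71 for Csf2rb, -3.04 to -0.12 for Csf2rb2, -9.33 to -0.32 for Csf3r, -9.95 to -0.28 for Ifngr1, -1.45 to -0.65 for Kit, 0.15 to 2.38 for Il3ra, 0.30 to 0.85 for Il6st, -0.81 to 1.36 for Flt3 and -1.31 to 2.54 for Il6ra. Without WT replicate 5, where WT replicate 4 is the only WT library, 6 of the 10 members were called (Csf2ra, Csf2rb, Csf2rb2, Csf3r, Il3ra and Ifngr1), as were 28.7% of all genes. Quantile normalization of all 4 libraries moved Csf2ra to -0.53, Csf2rb to -0.04, Csf3r to -0.96, Ifngr1 to -1.05, Kit to -0.60, Il3ra to 0.51 and Flt3 to 0.70, and turned Il6ra to -0.36. Il6ra was at -1.32 and -1.31 when quantile normalization or the filter of log2 5 went with the removal of WT replicate 4 (both chosen after seeing the data; limma adjusted p = 0.337 and 0.187). Flt3 turned to -0.81 without knockout replicate 1. Beyond the removal of a library, the cause was not tested. The remaining settings (no filter, centring, pseudocounts of 1 and 0.1, no trend) kept the direction of each member and called none. Under removals the chain differences ranged from -0.92 to 0.01 (Csf2ra minus Csf2rb), -4.75 to -0.59 (Csf2rb minus Csf2rb2), 0.27 to 5.42 (Il3ra minus Csf2rb2), -2.06 to 2.14 (Il6ra minus Il6st) and -10.46 to -0.33 (Ifngr1 minus Ifngr2). No paired analysis was possible because the groups share no replicate number. Without counts, no limit from depth could be set.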
